A study of Mus musculus with 33 samples.

Results

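Gene expression in the frontal region of the mouse skull vault was compared between embryonic days E12.5 and E12, over all genes of the table. The comparison used 6 of the 33 libraries of a developmental series of 11 stages, namely the 3 labelled E12 (E12a, E12b and E12c) and the 3 labelled E12.5 (E12.5a, E12.5b and E12.5c). All 6 were made from polyA RNA of tissue labelled as frontal bone of the calvaria, and the stage is the only difference the labels record. The labels give no strain, sex, treatment or number of embryos per library. The p-values below therefore reflect the spread among the 6 libraries alone, and that spread may be technical. Xist, the RNA that coats the inactive X chromosome of female cells, ran from 193 to 781 CPM over the 6 libraries, and Eif2s3y, a gene of the Y chromosome, from 30.7 to 56.7 CPM. Every library therefore held RNA of both female and male cells.

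The frontal bone has no cartilage model. Mesenchyme, largely from the cranial neural crest, condenses above the eye and beside the forebrain and turns directly into osteoblasts, the cells that lay down bone matrix. Before matrix appears, this mesenchyme is known by transcription factors such as Twist1, Msx1, Msx2 and Prrx1, while Runx2 commits cells to the osteoblast fate and Sp7 acts after it. Skin, brain, the eye and blood vessels lie within a short distance of it in the embryo, and a dissected piece of the region can carry them.

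Each library held between 14516518 and 18298159 counts. Levels are given in CPM (counts scaled to 1000000 per library, with a correction for library composition), and differences as log2 fold changes of E12.5 against E12 ± an approximate standard error. A gene was called when its Benjamini-Hochberg adjusted p in edgeR's quasi-likelihood test was below 0.05. Of 17151 genes tested, 4416 (25.7%) were higher and 4485 (26.2%) lower at E12.5, so that about every other gene was called (51.9%). Scaled by column totals alone, which moved the median of all genes up by 0.24 on the log2 scale, 64.6% of the calls were higher, against 49.6% here. Counts of calls also moved with single libraries. Without E12b they were 2683 higher and 2876 lower, without E12.5b 2918 and 2731, and without E12.5a 3050 and 2877.

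The E12 libraries differed among themselves along gene length. The tested genes were put into 10 classes of equal size by exonic length. In the shortest class (a median of 740.5 bases), the median gene stood above its E12.5 mean by 1.10 on the log2 scale in E12a, 0.81 in E12b and 0.36 in E12c. In the longest class (12068 bases), it stood at -0.95, -0.91 and -0.46. The 3 E12.5 libraries stayed between -0.04 and 0.05 in both classes. E12a and E12b thus lay far from the E12.5 libraries, and E12c lay between. Over all tested genes, log2 CPM of E12c correlated at 0.974 with E12b, at 0.954 with E12a and at 0.957 to 0.961 with the E12.5 libraries, as a description over genes of 1 comparison. The gap between the longest and the shortest class, taken against the mean of the 11 stages, was -1.88 in E12a, -1.43 in E12b and -0.53 in E12c, whereas every other library of the series lay between -0.34 and 0.50 except 1 at E13.5, at -0.89.

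**Figure D1:**
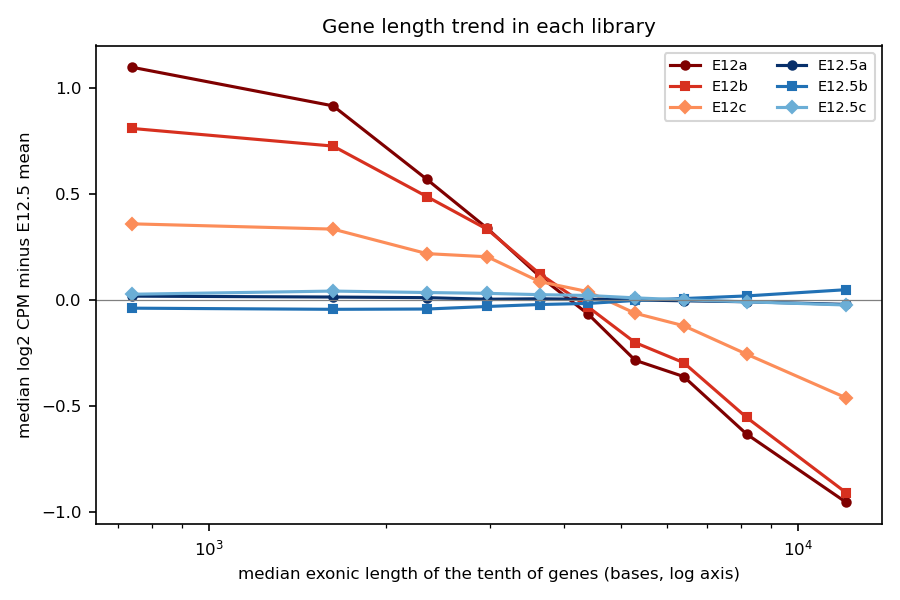
Median difference of log2 CPM from the E12.5 mean (vertical axis) in 10 classes of genes ordered by exonic length (horizontal axis, the median of each class in bases, log scale), 1 line per library. E12a runs from 1.10 in the shortest class to -0.95 in the longest and E12b from 0.81 to -0.91, E12c runs the same way at a smaller size, and the E12.5 lines lie near 0.

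The calls followed gene length as well. The median log2 fold change was -0.82 in the shortest class, where 15.7% of genes were called higher and 47.5% lower, and 0.75 in the longest, where 65.9% were higher and 3.09% lower. With a smooth trend on gene length removed in each library, the medians of these classes were 0.06 and 0.00, and 3657 genes (21.3%) were higher and 3846 (22.4%) lower. Of the genes called before, 2956 higher and 2815 lower were called the same way, 1460 and 1670 were lost, and 44 were called in both fits with opposite directions. With E12c as the only E12 library, a check chosen after the data were seen, 3759 genes (21.9%) were higher and 3229 (18.8%) lower. The fit against E12c alone holds no spread among E12 libraries, as its p-values rest on the spread among the E12.5 libraries. Its counts of calls therefore cannot be set against those of the fits with all 6 libraries, and nothing is drawn from them. Because the calls followed gene length, results below are also given after removal of the trend. This is done where removal changes the call or moves the value by more than 1.5 times. Counts of called members moved with single libraries in many gene lists too, and those that moved by more than 1.5 times are given beside the list. Each count of called members below stands against 25.7% of all genes higher and 26.2% lower, or 21.3% and 22.4% after removal of the trend.

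Genes of the lens of the eye were much lower at E12.5, and Cryaa and Cryba1 had the largest falls among genes at 5 CPM or more that met the naming rule. Cryaa (chr17:31677807-31681733, GRCm38), the alpha crystallin that keeps lens proteins soluble, stood at 25.9, 21.7 and 14.2 CPM in E12a, E12b and E12c and had no count in any E12.5 library. That is at least 378-fold lower, taking 3 counts over the E12.5 libraries as the floor (counting error only). Cryba1, a beta crystallin of the lens fibre, stood at 25.1, 17.3 and 12.7 CPM at E12, and at 0, 0.0506 and 0.115 at E12.5. Its summed counts were 799 and 3, a ratio of 324 with a counting interval from 110 to 1573. The groups lay far apart in both genes, with E12a highest and E12c lowest within E12. In bulk tissue, fewer cells of a type and less RNA per cell cannot be told apart.

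The promoter windows of the 4 crystallins with the largest falls by the naming rule are shown because these genes moved together. They are 150 bases up to the RefSeq start of each gene (RefSeq, GRCm38.p6), 5′ to 3′ on the gene's own strand. Capitals mark TGCTGA, the core of the half-site bound by MAF factors, and TATAAA, each searched on both strands; both motifs were chosen after the windows were seen.
Cryaa, chr17:31677781-31677930, plus strand: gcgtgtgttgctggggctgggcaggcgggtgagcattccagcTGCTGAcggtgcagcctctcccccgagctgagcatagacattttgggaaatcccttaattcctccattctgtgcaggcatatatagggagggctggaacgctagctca
Cryba1, chr11:77725294-77725443, minus strand: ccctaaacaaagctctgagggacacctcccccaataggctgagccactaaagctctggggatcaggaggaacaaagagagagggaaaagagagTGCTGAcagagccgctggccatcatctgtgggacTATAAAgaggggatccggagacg
Crybb1, chr5:112255670-112255819, plus strand: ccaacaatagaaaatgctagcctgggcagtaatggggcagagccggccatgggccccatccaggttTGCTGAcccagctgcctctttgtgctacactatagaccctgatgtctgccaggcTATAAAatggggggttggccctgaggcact
Crybb3, chr5:113081585-113081734, minus strand: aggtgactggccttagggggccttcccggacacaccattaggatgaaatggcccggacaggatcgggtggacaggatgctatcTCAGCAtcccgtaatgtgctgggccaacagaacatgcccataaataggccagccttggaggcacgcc
Each of the 4 windows held TGCTGA once, in Crybb3 as its reverse complement TCAGCA, and 2 of them held TATAAA. Of 32851 such windows over all promoters in the table, 10.1% held TGCTGA or its complement and 7.57% held TATAAA. A match describes the letters and is not a binding site.

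All 10 crystallins that passed the filter on low counts were lower, with a median log2 fold change of -4.51 against 0.01 over all genes tested. As a filter on low counts keeps mostly genes that were high at E12 here, this count and median describe the list and support nothing. The 6 others were Crybb2, with no count, Crygc (47 counts at E12 and 1 at E12.5), Crygd (27 and 0), Crygb (13 and 1), Crygs (13 and 4) and Crygf (2 and 0). Gamma crystallins are near-identical copies of each other, and the counting may have split their reads. The summed level of all 16 was 116, 87.1 and 58.4 CPM in E12a, E12b and E12c, and 4.64, 4.96 and 6.80 CPM at E12.5. Crybb1 fell from 8.28, 7.22 and 5.80 CPM to 0.391, 0.810 and 0.519, by 3.60 ± 0.31 on the log2 scale (adjusted p = 0.00152, edgeR's quasi-likelihood test). Crybb3 fell from 26.4, 18.2 and 10.8 CPM to 1.29, 1.42 and 2.13, by 3.51 ± 0.37.

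Retina and pigment cell genes fell as well. Rax, needed for the eye field to form, fell by 3.01 ± 0.44. Pmel, a protein of the pigment granule, fell by 2.0 ± 0.21 from 21.2, 17.6 and 16.3 CPM to 3.91, 4.05 and 5.76. Of the 12 tested members of the lens and eye list, 8 were lower and 1 higher, against 26.2% and 25.7% of all genes. Mip and Bfsp1 of the lens fibre and Dct of pigment cells did not pass (log2 fold changes of -0.48, -0.53 and -0.09), and the member called higher, Mitf (0.66), was not called after removal of the length trend, nor without any 1 library other than E12c (adjusted p between 0.0617 and 0.170 in edgeR's test). The pigment genes are shared by the eye and by melanocytes of the skin.

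Genes of the midbrain and of its boundary with the hindbrain were lower at E12.5. En2 (chr5:28165694-28172166), a homeobox factor of the midbrain and anterior hindbrain, stood at 13.1, 13.7 and 17.3 CPM at E12 and at 0, 0.203 and 0 CPM at E12.5 (a fall of 7.53 ± 0.54, adjusted p = 0.00131 in edgeR's quasi-likelihood test). Wnt1, the signal of the boundary, stood at 3.24, 3.42 and 4.09 CPM at E12 and had no count at E12.5, at least 65.7-fold lower. Unlike the crystallins, neither gene was lower in E12c than in E12a and E12b. Pou4f1, a factor of midbrain and sensory neurons, fell by 3.0 ± 0.23, from 7.23, 7.44 and 6.91 CPM to 0.782, 0.810 and 1.10, and Barhl1, a homeobox factor of hindbrain and diencephalic neurons, fell by 3.24 ± 0.43. Tal2, a factor of midbrain GABAergic neurons, went from between 14.8 and 16.7 CPM to between 1.96 and 3.23. Cnpy1, which lies beside En2 on chromosome 5 and modulates FGF signalling at the boundary, went from between 19.9 and 25.8 CPM to between 3.40 and 4.36.

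In a list of 13 midbrain and boundary genes, put together after the values were seen, 9 were lower and 1 was higher, against 26.2% and 25.7% of all genes, and the median was -2.43. The member that was higher, Pax2, which also marks the optic stalk and the ear, rose by 1.44 ± 0.35 at a low level (0.602 to 1.06 CPM at E12 and 1.72 to 2.88 at E12.5). Pax5, Fgf8 and Lmx1a did not pass. The position of E12c between E12a and E12b (taken as 0) and the E12.5 libraries (taken as 1) had a median of -0.06 over the called members of this list, against 0.57 over all genes lower by at least 2-fold. The called members hence did not share the order of the E12 libraries that gene length followed. As the list was chosen from these values, its counts and medians describe it and support nothing.

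Genes of the ventral forebrain fell with them. Lhx8, a factor of cholinergic neurons and of oral mesenchyme, stood at 15.4, 14.6 and 12.9 CPM at E12 and at 1.12, 0.608 and 1.61 CPM at E12.5 (a fall of 3.69 ± 0.31). Nkx2-1, which specifies the medial ganglionic eminence and hypothalamus, fell by 2.45 ± 0.25, from 28.3, 25.7 and 29.6 CPM to 3.18, 6.03 and 6.05. Lhx6, which acts after Nkx2-1 in migrating interneurons, fell by 1.78 ± 0.20, and Sst, the neuropeptide somatostatin, fell by 3.25 ± 0.35. Dlx1 and Dlx2, neighbouring homeobox genes of ventral forebrain and of neural crest mesenchyme, fell by 1.22 ± 0.13 and 1.71 ± 0.15. All 12 genes of a ventral forebrain list, also put together after the values were seen and so only described here, were lower, with a median of -1.16, and 10 of them after removal of the length trend.

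Cortical genes moved otherwise. Eomes, of intermediate progenitors of the cortex, stood at 56.8, 52.5 and 64.1 CPM at E12 and at 97.1, 99.0 and 98.9 CPM at E12.5, a rise of 0.77 ± 0.13 (adjusted p = 0.00432, edgeR's quasi-likelihood test). Neurod6, of young cortical neurons, rose by 0.63 ± 0.13, and Wnt8b, of the cortical hem at the medial edge of the cortex, by 1.06 ± 0.24. Lhx2, which defines the cortex within the telencephalon, did not pass (0.30), nor did Tbr1 of early cortical neurons (-0.17). Of 12 cortical genes, a list likewise chosen after the values were seen and so only described here, 5 were higher and none lower in edgeR's test. After removal of the length trend 8 were higher and 1 lower. Every library of both stages therefore carried forebrain RNA, with Emx1, a homeobox factor of the dorsal telencephalon, between 76.4 and 106 CPM.

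**Figure D2:**
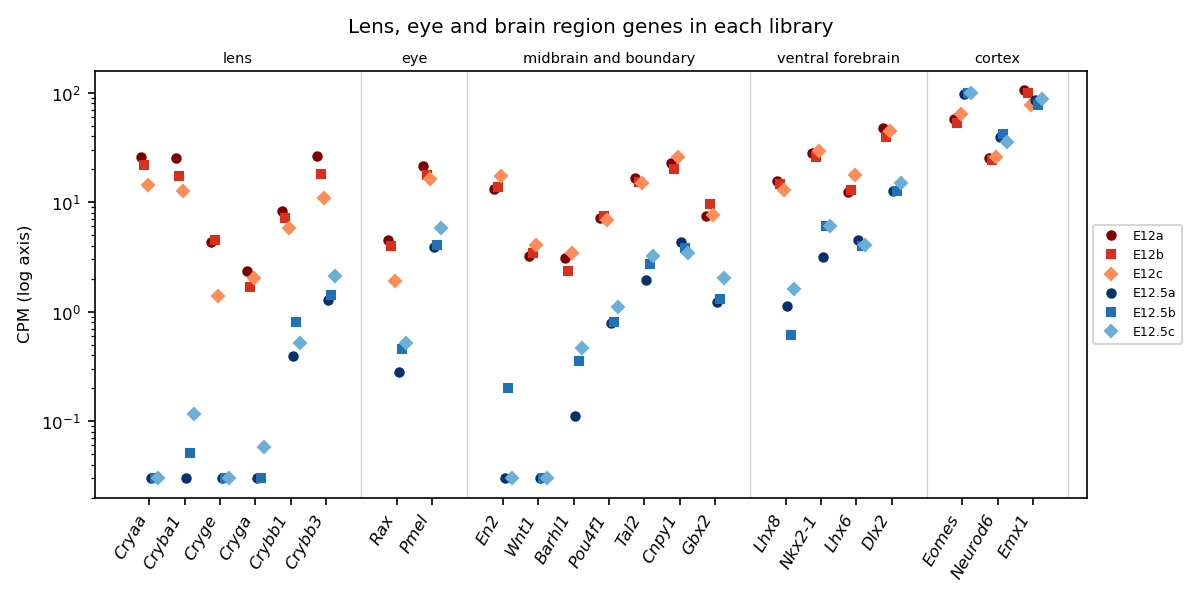
Levels of lens, eye and brain region genes in each library, in CPM on a log axis; a value below 0.03 CPM is drawn at 0.03. Lens, eye, midbrain and ventral forebrain genes lie higher in the 3 E12 libraries (red) than in the 3 E12.5 libraries (blue) with no overlap, while Eomes and Neurod6 lie higher at E12.5 and Emx1 overlaps. Of all genes tested, 31.4% were lower and 32.8% higher at E12.5 with no overlap.

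The general lists of neural cells gave mixed counts. Of 18 neural progenitor genes 11 were lower and 2 higher, and after removal of the length trend 7 were lower and 3 higher. Besides Rax, large changes were in Hes5, the Notch target of neural stem cells, which fell by 1.5 ± 0.20 and in Fabp7, a fatty acid binding protein of radial glia, which fell by 1.19 ± 0.26 and was not called after removal of the trend (-0.36, adjusted p = 0.0525 in edgeR's test). Of 25 neuronal genes 12 were lower and 6 higher, the latter 2 without E12b, 3 without E12.5b and 2 after removal of the trend. Nefm and Nefl, the medium and light neurofilaments of long axons, fell by 1.58 ± 0.13 and 1.5 ± 0.16, and Stmn3, a regulator of microtubules, by 1.80 ± 0.30, or 0.92 ± 0.15 after removal of the trend.

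A pair of enzymes that make retinoic acid, the vitamin A derived signal, moved in opposite directions. Aldh1a1, of the dorsal retina and the ventral midbrain, stood at 29.8, 34.7 and 27.9 CPM at E12 and at 0.503, 0.658 and 0.692 CPM at E12.5, a fall of 5.62 ± 0.21 (adjusted p = 3.62e-05, edgeR's quasi-likelihood test). Aldh1a3, of the ventral retina and nasal region, rose by 1.25 ± 0.16, from 11.1, 10.2 and 12.8 CPM to 30.2, 25.1 and 25.9. Neither gene overlapped between the stages, which held for 32.8% of all genes tested as higher and 31.4% as lower. Aldh1a3 was named after its values were seen, as were all genes here that fall outside the rule given under the processing.

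Along the whole series, the E12 libraries shared the lens signal with E11 and not with E11.5. On a scale set over all 33 libraries, Cryaa had a mean of 36.4 ± 3.1 CPM (SD, n = 3) in the E11 libraries, 0.0347 ± 0.060 in those of E11.5 and 20.5 ± 5.6 in those of E12, had no count at E12.5, and at the 7 remaining stages its highest mean was 0.111 CPM. En2 ran from 70.5 ± 0.94 CPM at E8.5 through 5.44 ± 0.71 at E11 to 0.254 ± 0.20 at E11.5, rose to 14.7 ± 2.6 at E12 and was at or below 0.244 CPM in every later mean. Stages that follow each other in time thus differed in these lens and midbrain genes, and E12.5 lay closer to E11.5 than to E12 in both genes. The part of dissection in this was not tested.

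**Figure D3:**
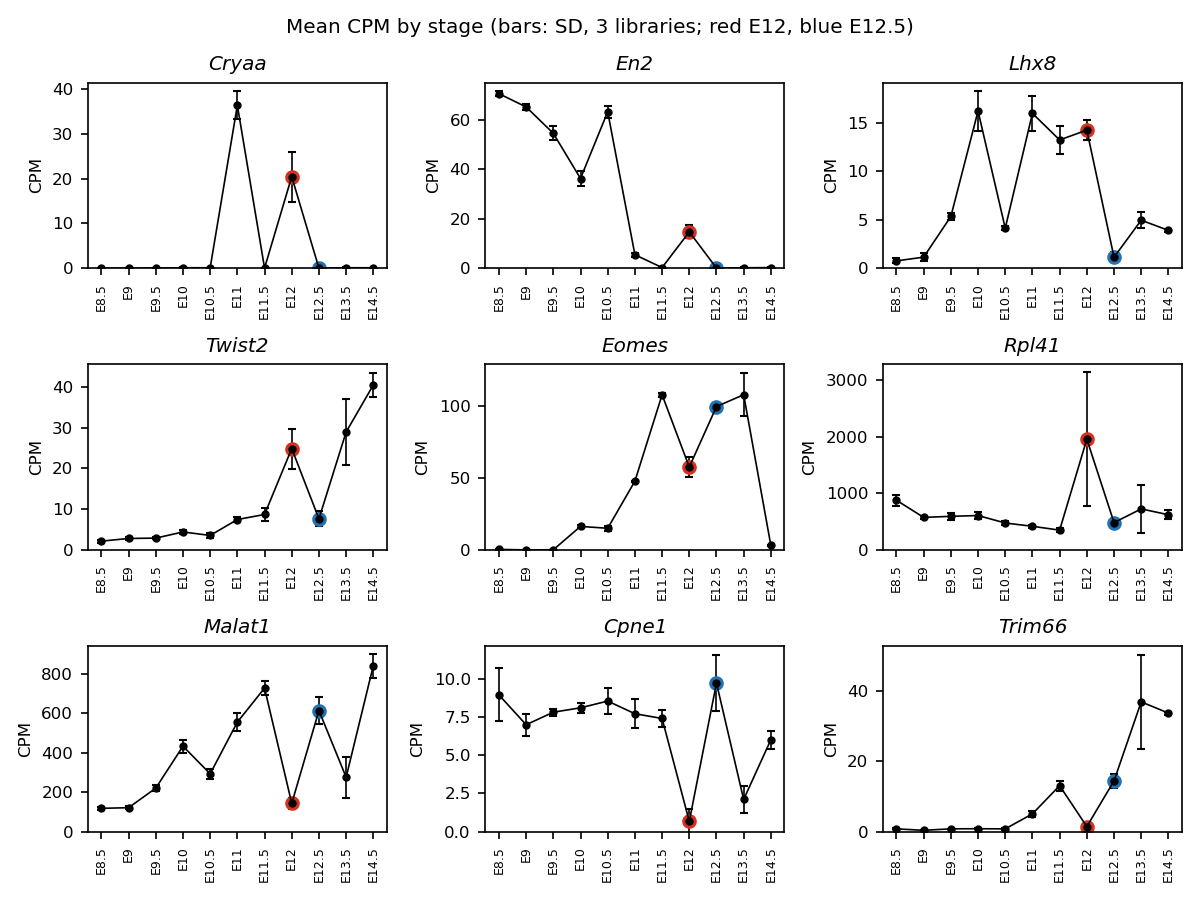
Mean CPM of 9 genes over the 11 stages (points, with SD bars over 3 libraries), with E12 in red and E12.5 in blue. Cryaa is high at E11 and E12 only, En2 and Twist2 stand above their neighbours at E12, and Malat1, Cpne1 and Trim66 stand below them at E12.

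Transcription factors of the skull mesenchyme were on the whole lower at E12.5. Of 27 members of this list, 13 were lower and 4 higher with a median of -0.51, against 26.2% and 25.7% of all genes and a median of 0.01, and 13 were lower and 1 higher after removal of the length trend. The higher members were 1 without E12b and 2 without E12.5a or E12.5b. Twist2 stood at 30.1, 25.4 and 19.5 CPM at E12 and at 9.55, 6.03 and 6.92 CPM at E12.5, and fell by 1.73 ± 0.23 (adjusted p = 0.00256, edgeR's quasi-likelihood test). Twist1, whose loss fuses the skull sutures early, stood at 75.7, 59.6 and 64.2 CPM and at 25.1, 26.8 and 28.2 CPM, a fall of 1.31 ± 0.14 that was 0.66 ± 0.15 after removal of the length trend. Both TWIST genes were lower in all 3 E12.5 libraries than in any E12 library, as were 31.4% of all genes tested.

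Msx2, which sets the number of osteogenic cells of the skull, fell by 1.68 ± 0.16, from 52.0, 45.3 and 37.3 CPM to 13.9, 13.7 and 14.53. Msx1, its partner gene, fell by 0.86 ± 0.13, from 68.5, 70.1 and 68.4 CPM to 38.1, 34.4 and 41.3. En1, which is needed for timely ossification of the skull and is also a midbrain gene, fell by 1.51 ± 0.21. Dlx2, given with the ventral forebrain above, is on this list too, as is Dlx1, so that a part of its falling members are genes that brain tissue also expresses. Of the 27, Eya1 rose in both fits, by 1.45 ± 0.21, from 8.73, 10.1 and 14.9 CPM to 31.3, 32.1 and 29.2. Eya1 is a transcriptional co-activator of cranial mesenchyme and sensory placodes.

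Alx4 and Prrx1 gave no call. Alx4, mutated in defects of frontonasal and skull vault ossification, stood at 25, 38.8 and 67.1 CPM at E12 and at 72.4, 67.4 and 78.0 CPM at E12.5 (0.73 ± 0.31, adjusted p = 0.0761 in edgeR's test), so that the E12 libraries spread widely, with E12c near the E12.5 level. Prrx1 stood between 109.8 and 118 CPM at E12 and between 109 and 131 CPM at E12.5, and the groups overlapped. Its log2 fold change was 0.07 ± 0.13 and turned to -0.61 ± 0.14 (adjusted p = 0.0107 in edgeR's test) after removal of the length trend, as Prrx1 has an exonic length of 11066 bases. The direction for Prrx1 thus depends on that trend.

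A pair of factors known from the palate, both chosen after their values were seen, were higher at E12.5. Tbx22, a T-box factor needed for the palate, rose by 2.01 ± 0.19, from 2.56, 2.73 and 2.77 CPM to 9.5, 11.6 and 11.4, and Pax9, of pharyngeal pouch, tooth and palate mesenchyme, rose by 1.76 ± 0.25, from 1.73, 1.37 and 2.13 CPM to 6.93, 5.72 and 5.30. Neither gene overlapped between stages, and 32.8% of all genes tested were higher at E12.5 in this way. Other factors that palate and jaw mesenchyme also uses went the other way, among them Msx1, Dlx2, Dlx5 and Lhx8, given with the other lists.

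Genes of the osteoblast lineage did not move together. Of 18 members tested, 4 were higher (2 without E12b or without E12.5c, and 2 after removal of the length trend) and 5 lower, with a median of -0.20, near the 25.7% and 26.2% of all genes. Runx2 stood at 8.96, 7.67 and 9.84 CPM at E12 and at 14.4, 14.9 and 15.6 CPM at E12.5. It was higher in all E12.5 libraries, by 0.76 ± 0.16 (adjusted p = 0.00703, edgeR's quasi-likelihood test), but by 0.26 ± 0.14 after removal of the length trend (adjusted p = 0.165). Postn, the matrix protein periostin of the periosteum, rose by 1.11 ± 0.15, from 33.5, 35.1 and 43.2 CPM to 82.7, 82.5 and 76.6 (0.63 ± 0.10 after removal of the trend). Dlx5 and Dlx6, a linked pair of homeobox genes of osteoblasts and of ventral forebrain, fell by 1.29 ± 0.18 and 1.65 ± 0.30.

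Markers of the mature osteoblast differed in level. Sp7 stood between 1.20 and 1.75 CPM at E12 and between 1.29 and 1.61 CPM at E12.5, with overlapping groups (-0.05 ± 0.29). Alpl, the phosphatase that frees phosphate for mineral, stood between 10.6 and 13.3 CPM and between 9.02 and 12.3 CPM (-0.11 ± 0.18). Ibsp, the bone sialoprotein, had 2 counts over the E12 libraries and 11 over the E12.5 libraries and was not tested. Osteocalcin (Bglap), Dmp1, Phex, Mepe and Phospho1 did not pass the filter on low counts either. Spp1, the matrix protein osteopontin, which macrophages also make, fell by 1.69 ± 0.31, from 9.04, 7.90 and 4.20 CPM to 2.46, 2.13 and 1.9. After removal of the length trend its fall was 0.99 ± 0.23. Of the markers of mineralizing bone, Ibsp, Bglap, Dmp1, Phex, Mepe and Phospho1 were thus near 0 in tissue labelled as frontal bone, while Alpl and Spp1 were not.

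**Figure D4:**
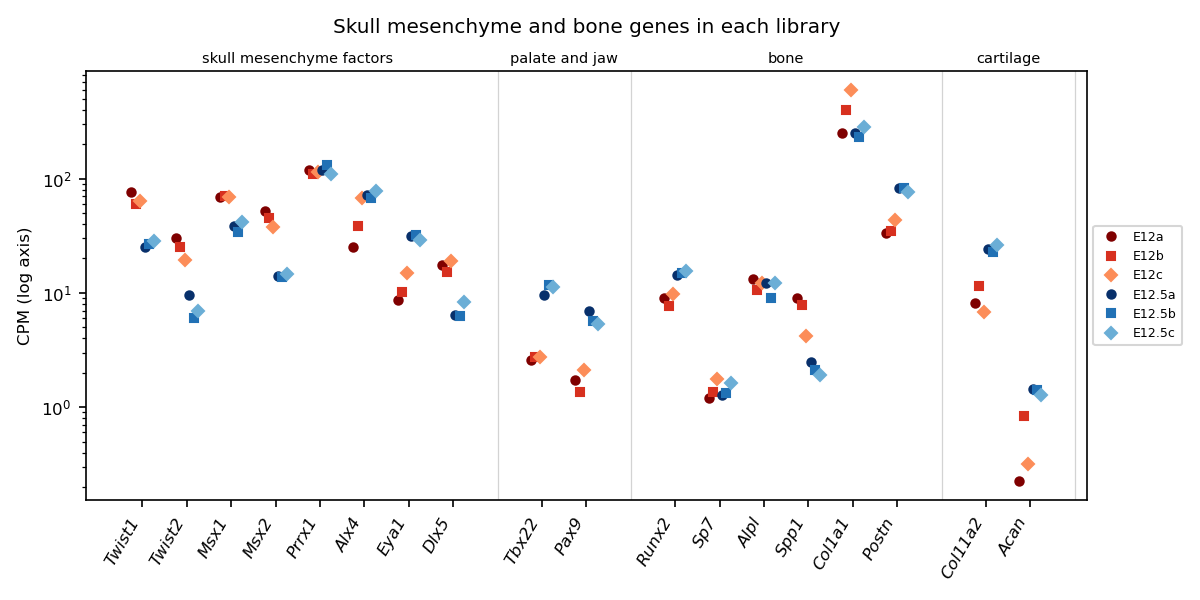
Levels of skull mesenchyme, palate and jaw, bone and cartilage genes in each library, in CPM on a log axis. Twist1, Twist2, Msx1, Msx2, Dlx5 and Spp1 lie lower in the 3 E12.5 libraries (blue) than in the 3 E12 libraries (red), Eya1, Tbx22, Pax9, Runx2 and Postn lie higher, and Prrx1, Sp7, Alpl and Col1a1 overlap.

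Matrix genes split. Col1a1, the main collagen chain of bone and skin, stood at 248, 398 and 595 CPM at E12 and at 252, 233 and 285 CPM at E12.5, so that E12a lay among the E12.5 libraries and E12c far above them (-0.69 ± 0.29, adjusted p = 0.0724 in edgeR's test, and -0.96 ± 0.23, adjusted p = 0.0124, after removal of the length trend). Of 31 fibrillar matrix genes, 8 were higher and 5 lower, and 7 and 10 after removal of the trend. With column totals alone they were 10 and 2, the higher members were 5 without E12b, and the lower members were 2 or 3 without E12b or any 1 E12.5 library. Fmod, the proteoglycan fibromodulin of tendon and bone surfaces, fell by 1.93 ± 0.35. Col14a1 and Fn1, a fibril-associated collagen and fibronectin, rose by 1.13 ± 0.26 and 1.17 ± 0.27, the latter by 0.51 ± 0.17 after removal of the trend. Col12a1, another fibril-associated collagen, rose by 1.18 ± 0.25 and was not called after removal of the trend (0.32 ± 0.14).

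Of 16 tested cartilage genes, 6 were higher and none lower in edgeR's test, against 25.7% and 26.2% of all genes. Without E12.5b 3 were higher, and after removal of the length trend 2 were higher and 1 lower. Col11a2, a collagen of cartilage fibrils, stood at 8.21, 11.55 and 6.75 CPM at E12 and at 24.0, 22.8 and 26.3 CPM at E12.5, and rose by 1.47 ± 0.21. Chad, the matrix protein chondroadherin, rose by 1.66 ± 0.43 and Acan, the main cartilage proteoglycan, by 1.61 ± 0.46, both below 2 CPM in every library, and Acan was not called after removal of the trend (adjusted p = 0.0625 in edgeR's test). Without any 1 E12.5 library Acan missed the threshold (adjusted p between 0.0508 and 0.0630), as did Chad without E12b or E12.5b (0.0508 and 0.0578). Sox5, a partner of SOX9 in chondrocytes, rose by 1.05 ± 0.23, but by 0.23 ± 0.13 with the trend removed, where it was not called.

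In the hedgehog pathway, in which the ligand SHH relieves PTCH1 inhibition and acts through GLI factors, the ligand gene Shh fell while 7 other members rose. Shh fell by 1.32 ± 0.35, from 2.41, 3.11 and 3.62 CPM to 0.782, 1.11 and 1.79, and missed the threshold without E12.5a or E12.5b (adjusted p = 0.0542 and 0.0596 in edgeR's test). Cdon, a co-receptor, stood at 117, 120.0 and 162 CPM at E12 and at 316, 340.4 and 338 CPM at E12.5, and rose by 1.32 ± 0.17 (0.92 ± 0.11 after removal of the length trend). Gli3, the main repressor of the pathway, rose by 1.14 ± 0.19 (0.61 ± 0.12 after removal), and Disp1, which releases the ligand, by 0.96 ± 0.23. Of 15 members tested, 7 were higher and 1 lower with a median of 0.51, against 25.7% and 26.2% of all genes, and 6 and 2 after removal of the trend. The higher members were 3 without E12b, 4 without E12.5a or E12.5c and 11 without E12c.

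WNT ligands act through frizzled receptors, in the canonical branch on beta-catenin. Of 56 members, 10 were higher and 16 lower, against 25.7% and 26.2% of all genes, and 7 and 12 after removal of the length trend. With column totals alone they were 10 and 10, and without E12c the higher members were 18. Besides Wnt1, the ligands Wnt10a and Wnt6 of the surface ectoderm fell by 2.22 ± 0.27 and 2.0 ± 0.25, Wnt6 from 31.3, 22.5 and 19.5 CPM to 6.26, 4.56 and 7.49. Wnt2b, a ligand of the dorsal midline and the eye margin, rose by 1.73 ± 0.35, from 3.46, 6.23 and 10.9 CPM to 21.2, 21.8 and 26.5. Within the ligands, therefore, large falls and rises stood side by side.

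For BMP and TGF-beta, 11 of 38 members were higher and 8 lower, near the 25.7% and 26.2% of all genes, and 5 and 8 after removal of the length trend. With column totals alone they were 12 and 4, and leaving out any 1 library other than E12c left between 3 and 7 higher and, without E12b, E12.5a or E12.5b, 4 or 5 lower. Id1 and Id3, direct BMP targets that hold back differentiation, each fell by 1.36 on the log2 scale, Id3 from 389, 289 and 202 CPM to 113, 106 and 124. With the trend removed they fell by 0.51 and 0.71. Tgfb1, a ligand made by blood and vessel cells among others, fell by 1.23 ± 0.19, and Bmpr1b, a BMP receptor of skeletal condensations, rose by 1.24 ± 0.18, from 10.1, 8.28 and 12.7 CPM to 25.5, 25.5 and 22.7.

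Of 26 FGF members 3 were higher and 5 lower, against 25.7% and 26.2% of all genes, and under scaling by totals 5 and 2. The lower members were 2 or 3 without E12b or any 1 E12.5 library, and the higher 8 without E12c. Fgf3 and Fgf15, ligands of the developing brain, fell by 3.11 ± 0.41 and 1.09 ± 0.16, Fgf3 from between 2.18 and 2.58 CPM to between 0.152 and 0.461. Fgfr3, a receptor of cortical progenitors and chondrocytes, rose by 1.05 ± 0.21, and Il17rd, an inhibitor of FGF signalling, by 1.18 ± 0.23 (0.55 ± 0.14 after removal of the trend). Of 20 Notch members, 6 were higher (3 without E12b) and 5 lower, which is near the shares of all genes. The receptors Notch1 and Notch3 rose by 1.31 ± 0.37 and 1.28 ± 0.39 while the target Hes1 fell by 1.28 ± 0.27; after removal of the trend Notch1 gave 0.55 ± 0.25 and was not called (adjusted p = 0.107 in edgeR's test). Notch1 also missed the threshold without E12b or E12.5c (adjusted p = 0.0766 and 0.0674), and Notch3 without E12b or any 1 E12.5 library (between 0.0571 and 0.0958).

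The series title concerns citrate carried by extracellular vesicles. Of 10 tested citrate genes, 4 were lower and none higher in edgeR's test, against 26.2% and 25.7% of all genes. After removal of the length trend 2 were lower, near the 22.4% of all genes in that fit. With column totals alone, and without E12b or any 1 E12.5 library, 2 were lower as well. Without E12c, 3 were higher. Slc25a1, which exports citrate from mitochondria, stood at 102, 94.6 and 70.0 CPM at E12 and at 43.2, 42.7 and 49.1 CPM at E12.5, a fall of 0.98 ± 0.17 (0.48 ± 0.11 after removal of the trend). Idh1, Idh2 and Slc39a1, the cytosolic and mitochondrial isocitrate dehydrogenases and a zinc importer, fell by 0.66 ± 0.16, 0.55 ± 0.16 and 0.37 ± 0.13, and none of these 3 was called after removal of the trend, where Slc39a1 stood at 0.05. Leaving out 1 library ended the call of Idh1 without E12.5c, of Idh2 without E12b, E12.5a or E12.5b, and of Slc39a1 without any library other than E12c (adjusted p between 0.0532 and 0.146 in edgeR's test). Cs, which makes citrate, gave 0.03 ± 0.14, Acly, which splits it in the cytosol, 0.50 ± 0.23 (adjusted p = 0.094 in edgeR's test), and Ank, a citrate and pyrophosphate exporter, -0.02 ± 0.14. Aco1, the cytosolic aconitase, did not pass (0.23). The plasma membrane importer Slc13a3 gave -1.13 ± 0.44 at about 1 CPM and was called only after removal of the trend (-1.27, adjusted p = 0.0435 in edgeR's test). Slc13a5, the other importer, had 9 counts over the E12 libraries and 12 over the E12.5 libraries and was not tested.

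In the list of vesicle formation every called gene was lower. Of 26 tested, 17 were lower and none higher in edgeR's test, against 26.2% and 25.7% of all genes, and 9 did not pass, with a median of -0.48 over the list, and 12 were lower after removal of the length trend. With column totals alone 10 were lower, and without E12b or any 1 E12.5 library 9 or 10. Chmp2a and Chmp4b, subunits of the machinery that buds vesicles inward, fell by 1.35 ± 0.30 and 1.27 ± 0.21 (0.47 and 0.71 after removal). Anxa2, a membrane-binding annexin, fell by 1.14 ± 0.23, from 713, 684 and 404 CPM to 281, 253 and 284, and Cd63, a tetraspanin of vesicle membranes, by 1.11 ± 0.22. In each of these 4 genes E12c lay between E12b and the E12.5 libraries.

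Genes of the basic machinery of the cell moved as whole lists, and in the order of the libraries that gene length followed. Of 79 cytosolic ribosomal protein genes 72 were lower and none higher in edgeR's test (median -1.35), and 53 were lower and 2 higher after removal of the length trend (median -0.73). Their summed level was 117534, 81105 and 46677 CPM in E12a, E12b and E12c and lay between 29856 and 32959 CPM at E12.5. Rpl41, the shortest ribosomal protein, stood at 3088, 2172 and 679.8 CPM and at 507, 411 and 508 CPM, and fell by 2.06 ± 0.47, or by 1.13 ± 0.31 after removal of the trend. Rplp1 of the ribosomal stalk fell by 1.52 ± 0.34 and was not called after removal (-0.47 ± 0.18, adjusted p = 0.0579 in edgeR's test). Rps28, Rpl37a, Rpl24 and Rpl14 led the list, with log2 fold changes between -2.41 and -2.08 (Rpl24 at -1.37 without E12a). Ribosomal protein genes have processed copies in the genome, and reads may have been split among them.

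Of 62 nuclear genes of the respiratory chain 56 were lower (46 after removal of the length trend), all 14 core proteasome genes were lower (12 after removal), and 18 of 21 small subunits of the spliceosome were lower (17 after removal). In the respiratory list the largest falls were in Atp5e and Atp5k of the ATP synthase and Ndufa2 and Ndufa5 of complex I, by between 1.93 and 2.24. Psmb4, Psmb1, Psmb6 and Psma2 led the proteasome list, falling by between 1.40 and 1.75, and Snrpe, Lsm5, Snrpg and Snrpb2 led the spliceosome list, falling by between 1.68 and 2.14. Transcribed in the mitochondrion itself, mt-Co1 of complex IV stood between 4128 and 5443 CPM at E12 and between 3283 and 4882 CPM at E12.5, and did not pass (-0.16 ± 0.22, and 0.47 ± 0.28 after removal of the trend). Of its list, 7 of 13 mitochondrial genes were lower and none higher in edgeR's test, with a median of -0.66, and 3 were lower with a median of 0.09 after removal of the trend. The largest of these falls were in mt-Nd6, by 2.62 ± 0.53, mt-Nd3, by 2.13 ± 0.60, mt-Co3, by 1.82 ± 0.29, and mt-Co2, by 1.76 ± 0.29, and after removal of the trend mt-Nd3 was not called and the others fell by 1.48, 0.87 and 0.78. The libraries of both stages overlapped in mt-Nd3, which also missed the threshold without E12b, E12.5b or E12.5c (adjusted p between 0.0665 and 0.0714 in edgeR's test). Summed over the E12 and the E12.5 libraries, mt-Nd3 had 129 and 38 counts, mt-Co3 1062 and 383, and mt-Co2 1367 and 517. In the same way mt-Nd6 had 17716 and 3829, and mt-Co1 214094 and 229228. Chromatin regulators, whose median exonic length is 12811 bases against 1770 for the ribosomal proteins, went the other way. Of 55, 39 were higher and none lower in edgeR's test, near the 65.9% higher and 3.09% lower of the longest class of genes (12068 bases). After removal of the trend 18 were higher and 8 lower, against 21.3% and 22.4% of all genes. Kmt2d, a histone methyltransferase of enhancers, rose by 2.17 ± 0.25, from 45.2, 53.8 and 86.9 CPM to 259.8, 268 and 309, and by 1.12 ± 0.14 with the trend removed. Tet2, which oxidizes DNA methylation, rose by 2.02 ± 0.28 (1.10 ± 0.15 with it removed), and the ubiquitin ligase Huwe1 and the histone methyltransferase Ash1l by 1.98 ± 0.33 and 1.91 ± 0.36 (0.85 ± 0.18 and 1.11 ± 0.23 with it removed).

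**Figure D5:**
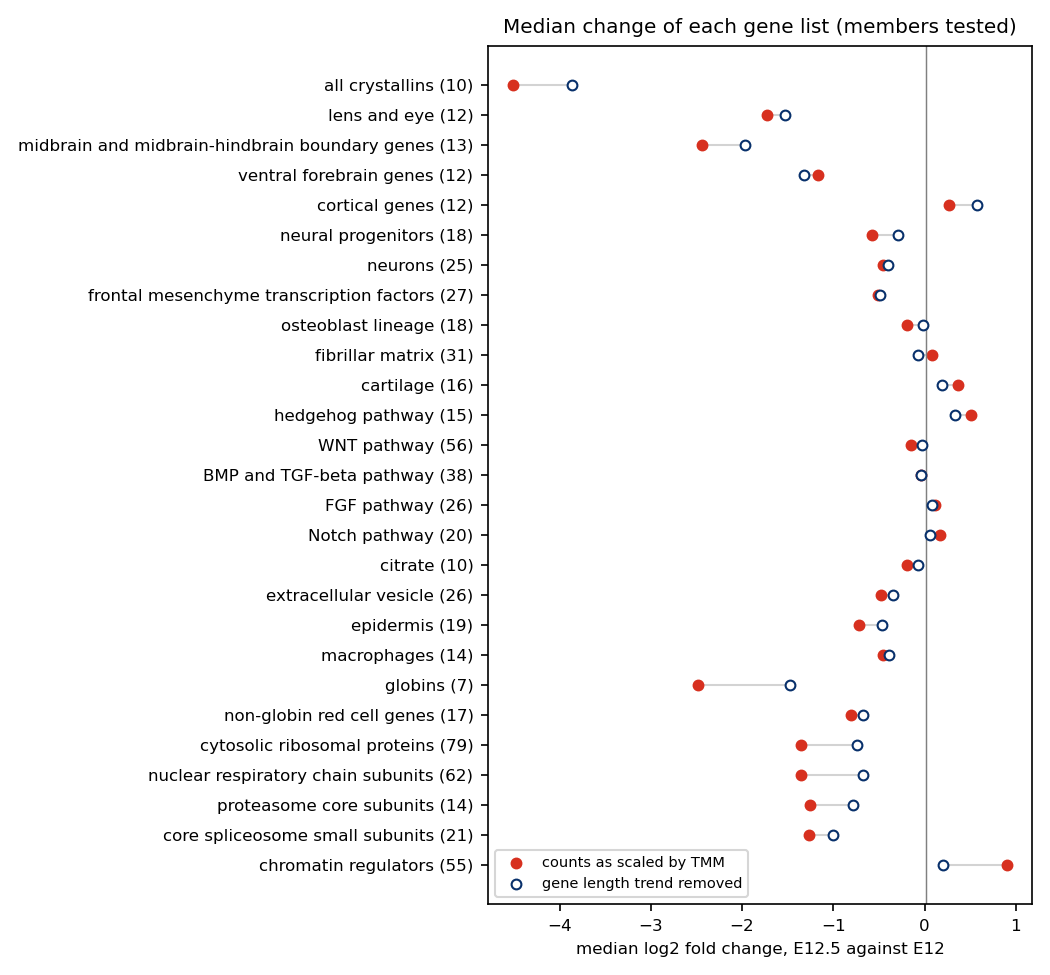
Median log2 fold change of E12.5 against E12 for 27 gene lists (number of members tested in brackets), as scaled (filled points) and after removal of the gene length trend (open points); the grey line is the median of all genes. Ribosomal, respiratory, proteasome and spliceosome lists move towards 0 from below and chromatin regulators from above. The crystallin list also moves towards 0, from -4.51 to -3.87, and the midbrain list from -2.43 to -1.96. The ventral forebrain list moves from -1.16 to -1.32.

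The 12 largest rises that the naming rule gave were led by a non-coding transcript. Srrm4os, a transcript antisense to the neuronal splicing factor Srrm4, stood at 0.0753, 0.152 and 0.585 CPM at E12 and at 6.26, 9.62 and 7.67 CPM at E12.5 (4.67 ± 0.48, adjusted p = 0.00171 in edgeR's quasi-likelihood test); without a stated strand setting its reads cannot be told from those of its partner. Cpne1, a calcium-dependent membrane-binding protein, stood at 0.0753, 0.304 and 1.60 CPM and at 11.1, 7.60 and 9.97 CPM (3.70 ± 0.61, and 5.60 without E12c). Sned1, a matrix protein, stood at 2.48, 3.95 and 17.1 CPM and at 86.6, 100.1 and 103 CPM (3.58 ± 0.61). In each of the 3 genes E12c was the highest E12 library and still below every E12.5 library. The rule also named Tnfrsf18, Kcna3, Ttn, Prrt2, Rgs11, Trim66, Lrch3, Ccdc187 and Pla2g4b, a receptor, a potassium channel, the muscle protein titin and others with no shared role, which rose by between 2.97 and 3.53. Ttn, with an exonic length of 117334 bases, rose by 3.47 ± 0.33, but by 1.34 ± 0.24 after removal of the length trend. Without E12c the rises of Kcna3, Prrt2 and Lrch3 were 6.76, 5.74 and 4.67.

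Cpne1 among these genes, and Malat1, which was named after its values were seen, were lower at E12 than at E11.5 and E12.5. Cpne1 had a mean of 7.39 CPM in the E11.5 libraries, 0.674 CPM in those of E12 and 9.71 CPM at E12.5, and between 6.01 and 8.94 CPM at 8 of the 11 stages in all, with 2.10 at E13.5. Malat1, an abundant RNA retained in the nucleus, stood at 144, 119 and 166 CPM at E12 and at 596, 677 and 540.5 CPM at E12.5, a rise of 2.08 ± 0.18 that was 1.74 ± 0.14 after removal of the length trend. Over the series Malat1 had a mean of 728 CPM at E11.5 and 143 at E12. RNA quality and library preparation were not tested, as no value for them is given.

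The remaining falls named by the rule were in Mir703, Asic4 and Sncg. Sncg, the synuclein of peripheral and motor axons, stood at 14.9, 15.5 and 8.19 CPM at E12 and at 1.23, 1.06 and 2.42 CPM at E12.5 (a fall of 3.03 ± 0.38). Asic4, a member of the acid-sensing channel family, fell by 3.10 ± 0.33. Mir703, a gene annotated at 109 bases, stood at 10.8, 5.62 and 1.01 CPM and at 0.670, 0.760 and 0.346 CPM (a fall of 3.24 ± 0.79). Against E12c alone its log2 fold change was only -0.74.

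Globins were lower at E12.5, and of other red cell, skin and macrophage genes more were lower than higher. All 7 tested globin genes were lower, with a summed level of 29381, 22534 and 10689 CPM at E12 and between 3857 and 4428 CPM at E12.5. Hbb-y, an embryonic globin of the first red cells, stood at 19150, 14914 and 6776 CPM and at 2878, 2573 and 2907 CPM (a fall of 2.29 ± 0.37, and of 1.26 ± 0.19 with the length trend removed). Hbb-bh1, another embryonic globin, fell by 2.49 ± 0.30, or by 1.48 ± 0.13 with it removed, and the alpha globins Hba-a1, Hba-a2 and Hba-x and the beta globins Hbb-bt and Hbb-bs fell by between 1.77 and 2.88. Globin genes are near-identical within their clusters, and their counts may have been split. Of 17 other red cell genes, which do not share the short length of globins, 10 were lower and none higher in edgeR's test, and 9 were lower after removal of the trend, with Gata1, the master factor of red cells, and Nfe2 and Hemgn falling by between 1.39 and 1.67. Their summed level was 559, 576 and 621 CPM at E12 and between 433 and 447 CPM at E12.5.

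Of 19 epidermal genes, 11 were lower and 2 higher, and 9 and 2 after removal of the length trend. With column totals alone they were 6 and 2, and without any 1 library other than E12c between 5 and 7 were lower. The summed level lay between 286 and 346 CPM at E12 and between 192 and 213 CPM at E12.5. In counts not scaled for depth, Grhl2 (153 at E12 and 346 at E12.5) and Cldn6 (501 and 908) went up. Sfn, the stratifin of skin keratinocytes, fell by 2.51 ± 0.26, from 51.4, 43.4 and 25.5 CPM to 6.82, 7.34 and 6.86. Krt15, a keratin of basal cells, fell by 1.53 ± 0.17 and Perp, a desmosome protein, by 1.76 ± 0.19 (0.91 ± 0.14 and 1.19 ± 0.13 with the length trend removed). Of 14 macrophage genes 7 were lower, 1 was higher and 6 did not pass, and 6 were lower and 1 higher after removal of the trend. The falls were led by the complement subunits C1qa and C1qb and by Aif1 and Fcer1g, which fell by between 1.32 and 1.93. In counts not scaled for depth, Cd68 (315 at E12 and 595 at E12.5) and Ptprc (117 and 219) went up, though only 1 member of the list was called higher. Of 16 endothelial genes 3 were higher and 3 lower (6 and 6 without E12c), with a summed level between 519.7 and 555 CPM at E12 and between 484 and 532 CPM at E12.5. Cldn5 of tight junctions, Sox18 and Plvap fell by between 0.94 and 1.73, and Tek, the angiopoietin receptor, rose by 0.80 ± 0.15. Vessel cells thus showed no common direction, and the part of these other tissues in the changes of the mesenchyme genes was not tested.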

How the data were processed

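Whole-number counts per gene were deposited by the authors for 33 libraries, and the submitters' processing notes name cutadapt 1.9.1, HISAT2 2.0.1, HTSeq 0.6.1 and build GRCm38. No source used here gives the annotation release or the strand setting of the counting. The 6 libraries held between 14516518 and 18298159 counts, of which 99.8% to 99.9% fell in tested genes.

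Of 55401 genes, 17151 passed edgeR's filterByExpr and were tested with edgeR 4.0.16 (R 4.3.3; quasi-likelihood test, TMM scaling, 4 residual degrees of freedom, Benjamini-Hochberg adjustment over all genes tested, threshold 0.05). The column letters serve as names only, and no library was a duplicate of another. The length trend was removed through offsets from a lowess curve (span 0.3) on log2 exonic length in each library, and standard errors are log2 fold changes divided by the root of the test statistic. Both fits were run on simulated data, to which the length trend estimated from these libraries was added. The fit without its removal gave 9.93% false calls and the fit with it 0.0413%. As the same method estimated and removed the trend, this cannot show how well the removal works on real data. In the fit with removal, 1.49% of 1.5-fold, 37.3% of 2-fold and 95.5% of 4-fold changes were recovered, each out of 66 or 67 genes. The simulated spread was estimated before removal of the trend and so includes it. These shares therefore do not give what the fit with removal recovers in the real data.

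Genes were named by rule: the 12 largest rises and 12 largest falls called the same way with and without the trend, at 5 CPM or more in the higher stage, with no overlap between libraries and no predicted genes, clones or pseudogenes; the 4 largest called changes of each list described (all members of a list of up to 12); and a set of always reported genes. Members and lists were chosen with earlier results of these data known, and other genes were named after their values were seen. Alternatives were other scalings and filters, DESeq2 1.42.0, limma 3.58.1 voom with library weights, all 33 libraries, a block on the letters, each library left out, a GC trend, and E12c alone. Promoters are from RefSeq, and figures were drawn with matplotlib 3.10.9. Some genes that the rule names are not reported here.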

Additional observations from a re-analysis of the deposited data

How the results depend on the processing

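The comparison gave 4416 genes higher and 4485 lower at E12.5. Counts within 1.5 times of these came from DESeq2's size factors, no filter, a stricter filter, DESeq2 and all 33 libraries. Calls against E12c alone, a fit chosen after seeing the data, are not counted, as it holds no spread among E12 libraries. Weighting libraries in voom gave 6757 higher, and column totals alone 2960 lower. Leaving out 1 library gave 2683 to 6004 higher and 2731 to 5697 lower. With the length trend removed (3657 and 3846), it gave 2029 to 5299 and 2003 to 5148, and further removal of a GC trend, also chosen after seeing the data, gave 3931 and 4053. The cause was not tested, beyond fewer libraries in the fit. Column letters did not pair the libraries (correlations of deviations 0.04, -0.12 and 0.01 for a, b and c), and of the E12 libraries E12a alone correlated best with its own letter. A replicate block on them gave 4272 and 4009, or 3523 and 3446 with the length trend removed.

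Prrx1 turned from 0.07 to -0.61 with the length trend removed, -0.60 with the block as well, -0.59 with GC and -0.33 against E12c alone, and spanned -0.74 to 0.13 over the fits without 1 library. Emx1 turned from -0.18 to 0.31, 0.40 with GC and 0.35 against E12c alone (-0.30 to 0.36 without 1 library), and Slc39a1 from -0.37 to 0.0504, 0.0561 with the block and 0.0561 with GC (-0.41 to 0.12). Without 1 library mt-Co1 spanned -0.30 to 0.83. Eif2s3y stood at 0.50 against E12c alone and 0.52 with the length trend removed as well. Depth limits genes near 1 CPM, such as Slc13a3, with 52 counts over the E12 libraries and 29 over the E12.5 libraries.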

Other observations

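In the list of pericytes and smooth muscle, 3 contractile genes fell and Myh11, did not pass. Cnn1, the calponin of smooth muscle, stood at 9.49, 7.06 and 6.06 CPM in E12a, E12b and E12c and at 1.51, 1.37 and 1.5 CPM in E12.5a, E12.5b and E12.5c, and fell by 2.36 ± 0.25 on the log2 scale. Tagln and Acta2, of the contractile fibres of smooth muscle and myofibroblasts, fell by 1.61 ± 0.21 and 1.28 ± 0.14 (after removal of the length trend they fell by 1.04 and 0.80), while Abcc9, a channel subunit of pericytes, rose by 1.43 ± 0.23. Myh11, the smooth muscle myosin, stood at 0.452, 1.29 and 1.54 CPM at E12 and at 1.96, 2.79 and 2.13 CPM at E12.5, with no overlap, and did not pass (1.03 ± 0.41, adjusted p = 0.0618 in edgeR's test). Of 10 pericyte and smooth muscle genes 3 were higher and 4 lower. In the list of dermal and meningeal mesenchyme 10 of 19 were lower and 2 higher, and none was higher in edgeR's test without any 1 library other than E12c. Foxd1, of facial and meningeal mesenchyme and of the retina, stood at 39.0, 26.6 and 21.6 CPM and at 7.26, 7.75 and 8.88 CPM. All 3 called members of 6 tendon genes were lower, and 2 of 6 choroid plexus genes were higher, Kcne2 by 1.24 ± 0.22 and Clic6 by 0.76 ± 0.22 (adjusted p between 0.0549 and 0.0775 in edgeR's test without E12b or any 1 E12.5 library).

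Among imprinted growth genes calls went both ways. Of 14, 6 were higher (3 without E12b) and 4 lower, against 25.7% and 26.2% of all genes, and 2 and 6 after removal of the length trend. Cdkn1c, a cell cycle inhibitor, stood at 805, 694 and 498 CPM at E12 and at 257, 222 and 265 CPM at E12.5, and fell by 1.42 ± 0.20. Ndn, the neuronal growth suppressor necdin, fell by 1.02 ± 0.15, and Igf2r, which clears the growth factor IGF2, rose by 1.07 ± 0.28 (0.58 ± 0.19 after removal, and adjusted p = 0.0588 without E12b and 0.0503 without E12.5c in edgeR's test). Peg3, a zinc finger protein, rose by 1.09 ± 0.18 and was not called after removal (0.28). Of 22 citric acid cycle genes 12 were lower in each fit (6 or 7 without E12b or any 1 E12.5 library) and none higher in edgeR's test, and of 33 translation factors 22 were lower (14 without E12.5b), 23 after removal. Eif3f, an initiation factor subunit, fell by 1.93 ± 0.28. Of 33 cell division genes 5 were higher and 11 lower (3 and 7 without E12b or without E12.5a, 3 and 5 without E12.5b, 6 lower without E12.5c and 9 higher without E12c), among them Mki67 (1.00 ± 0.18) and Birc5 (-1.18 ± 0.32) in opposite directions. Without E12a Birc5 stood at -0.76, and it missed the threshold without E12.5b or E12.5c (adjusted p = 0.0631 and 0.0586 in edgeR's test).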
